A study of Mus musculus with 87 samples.

Results

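The genes described here are the Hox genes, the homeobox genes of the Hoxa, Hoxb, Hoxc and Hoxd clusters. They were chosen by name, and 38 of the 43346 Ensembl genes in the expression tables are followed, 10 in Hoxa, 10 in Hoxb, 9 in Hoxc and 9 in Hoxd. The study deleted boundaries between topologically associating domains (TADs, the stretches of a chromosome that contact themselves more than their surroundings) in FVB mice with CRISPR/Cas9, and each of its 7 lines with RNA-seq data, B2 to B8, lacks 1 boundary and descends from 1 founder. Heterozygous animals of a line were crossed, and tissues of homozygous embryos were compared at E11.5 with those of wild-type littermates. None of these deletions lies on a chromosome that carries a Hox cluster. Of the 64 RNA-seq libraries, 34 are homozygous for a deletion and 30 are wild type. Line B2 gave lungs (6 homozygous and 6 wild type) and hearts (4 and 4). Lines B3 and B5 gave faces and hearts, B4 gave midbrains and guts, and B8 gave forebrains and neural tubes, with 2 homozygous and 2 wild-type libraries of each. Lines B6 and B7 gave faces (2 and 2 per line) and 2 homozygous hearts each, with no wild-type heart of their own. Sex is labelled for the lungs only, and lung titles also carry a code beginning with E that several libraries share.

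Hox genes encode transcription factors that give cells their position along the head-to-tail axis. The 13 paralog groups (Hoxa4, Hoxb4, Hoxc4 and Hoxd4 are paralog group 4) lie in the same order in every cluster, and genes of low number are switched on earlier and reach further towards the head than genes of high number, a property called collinearity. Retinoic acid, Cdx factors and Gdf11 signalling help to set these domains, and TALE homeodomain proteins such as Meis, Pbx and Pknox bind DNA together with Hox proteins. The forebrain and midbrain normally lie in front of the Hox domains, whereas hindbrain, branchial arches, spinal cord, heart, lung and gut take up different parts of the series.

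In the GRCm38 assembly, with GENCODE M21 gene models, the Hoxa members span chromosome 6 from 52162417 to 52260880 on the minus strand (98.5 kb), and the Hoxb members chromosome 11 from 96194316 to 96368256 on the plus strand (173.9 kb). The Hoxc members span chromosome 15 from 102921103 to 103036852 (115.8 kb) and the Hoxd members chromosome 2 from 74668310 to 74765142 (96.8 kb), both on the plus strand. The clusters are crowded, and 22 of the 38 members overlap another annotated gene. Hoxc5 and Hoxc10, and Hoxd3 and Hoxd4, share annotated exon bases with each other, and 9 members share exon bases with an antisense gene. The counting's strand setting is not given in the sources used here, so reads of those genes and their overlapping partners cannot be told apart, and the values of these members are uncertain to that extent.

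RefSeq promoter windows of 300 bases (GRCm38.p6) were found for 22 of the 38 members, 24 windows in all. Among all 32851 windows the median number of CG dinucleotides was 7, and among the members' windows it was 14.5. The letters TGACAG, bound by Meis and Pknox proteins, stood on either strand of 19.2% of all windows and of 8.3% of the members' windows (Hoxa2 and Hoxa3). TTTATG, bound by Cdx proteins, stood in 11.9% of all windows and in 20.8% of the members' (Hoxa7, Hoxb8, Hoxd3, Hoxd4 and Hoxd11). AGGTCA, a site of nuclear receptors including those of retinoic acid, stood in 16.3% of all windows and 29.2% of the members', and TATAAA in 13.6% and 16.7%. The 4 windows below are from genes that stand for successive steps of the axis in the expression data. They are the leading Hoxa genes of the face (Hoxa2), of the heart, lung and gut (Hoxa5) and of the neural tube (Hoxa7), and the last gene of the cluster (Hoxa13). All are on the minus strand of chromosome 6 and are written 5′ to 3′ in lower case, with matches to the 4 searched motifs in capitals. Hoxa2 lies in chr6:52164782-52165081 with 9 CG dinucleotides, Hoxa5 in chr6:52204538-52204837 with 29, Hoxa7 in chr6:52218524-52218823 with 9 and Hoxa13 in chr6:52260831-52261130 with 45.
Hoxa2: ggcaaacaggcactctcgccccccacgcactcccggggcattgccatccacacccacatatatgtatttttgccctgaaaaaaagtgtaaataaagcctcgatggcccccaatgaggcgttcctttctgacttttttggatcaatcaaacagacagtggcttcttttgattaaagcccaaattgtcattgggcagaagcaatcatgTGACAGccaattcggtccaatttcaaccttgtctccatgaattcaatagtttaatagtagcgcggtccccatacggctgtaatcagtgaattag
Hoxa5: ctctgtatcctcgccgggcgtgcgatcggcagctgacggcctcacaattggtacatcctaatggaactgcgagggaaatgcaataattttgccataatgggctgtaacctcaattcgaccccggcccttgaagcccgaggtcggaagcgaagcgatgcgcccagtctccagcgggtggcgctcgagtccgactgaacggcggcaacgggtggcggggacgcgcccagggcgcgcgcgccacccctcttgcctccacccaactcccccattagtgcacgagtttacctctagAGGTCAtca
Hoxa7: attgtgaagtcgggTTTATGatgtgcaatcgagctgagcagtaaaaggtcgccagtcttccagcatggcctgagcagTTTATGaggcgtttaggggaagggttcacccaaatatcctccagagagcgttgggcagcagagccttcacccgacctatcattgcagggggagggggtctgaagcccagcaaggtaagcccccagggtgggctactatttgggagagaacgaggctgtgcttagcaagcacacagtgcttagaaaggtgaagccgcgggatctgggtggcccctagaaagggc
Hoxa13: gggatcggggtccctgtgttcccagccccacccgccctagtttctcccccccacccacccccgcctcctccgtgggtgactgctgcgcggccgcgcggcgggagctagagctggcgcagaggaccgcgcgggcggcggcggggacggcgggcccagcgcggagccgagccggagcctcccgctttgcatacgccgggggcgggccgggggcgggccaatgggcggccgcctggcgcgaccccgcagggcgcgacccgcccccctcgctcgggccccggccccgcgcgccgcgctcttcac
The Hoxa2 window holds TGACAG once, the Hoxa5 window AGGTCA once and the Hoxa7 window TTTATG at 2 places. The Hoxa13 window, 81% G and C, holds none of these letters. These matches are a description of the letters and say nothing of binding.

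Libraries held 8391553 to 31793441 counts. The wild-type B2 lung E5420-09 stood apart, with the lowest total and 90.1% of its counts in 10 genes, as did the wild-type B2 lung E5420-07, with a mitochondrial share of 0.362%. The homozygous B5 heart A21 had the lowest cardiomyocyte marker sum of the 20 hearts, 9682 CPM (counts scaled to library size), and the highest cranial mesenchyme sum, 798 CPM, with 63.7 to 367 CPM in the other hearts. The marker sum of the labelled tissue was higher in every forebrain, midbrain, face, heart and lung than in any library of another tissue. This did not hold for guts, with gut marker sums of 192 to 286 CPM against 519 CPM in a lung and with liver marker sums of 4540 to 7243 CPM, nor for neural tubes, with spinal cord and general neural sums of 974.9 to 1114 CPM against 2266 CPM in a midbrain and with somite and muscle sums of 309 to 353 CPM. Levels are given below as TMM-scaled CPM per kilobase of effective transcript length, so that genes can be compared with each other, and a floor of 1 on this scale is used to count members that are on. In whole tissue, a lower level can reflect fewer expressing cells or less RNA per cell, which cannot be told apart.

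The Hox series lengthened from head to tail tissues. In wild-type libraries, 0 of 38 members reached the floor in the mean of the forebrains or of the midbrains, 8 in the face, 13 in the heart, 14 in the lung, 31 in the gut and 28 in the neural tube. The 8 face members were Hoxa2, Hoxa3, Hoxb2, Hoxb3, Hoxb4, Hoxb5, Hoxd3 and Hoxd4, of paralog groups 2 to 5. In these means heart members reached from group 2 to 6, lung members from 1 to 6, neural tube members from 1 to 10 and gut members from 1 to 13. The reach varied between libraries. The highest group at the floor ran from 3 to 8 in single faces and hearts and from 6 to 13 in lungs. In the lung E5420-09, with 356 Hox counts in all, 3 counts came to 2.89 CPM. A member could therefore reach the floor there on very few counts. In the other wild-type lungs 3 counts came to 0.103 to 0.190 CPM. It was 10 and 13 in the 2 guts, which held 26 and 32 members at the floor. Of the 38 members, 7 were at the floor in 5 tissues, 6 in 4, 2 in 3, 12 in 2 and 5 in a single tissue. The other 6, Hoxb13, Hoxc11, Hoxc12, Hoxc13, Hoxd12 and Hoxd13, all among the most posterior genes, were at the floor nowhere.

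**Figure D1:**
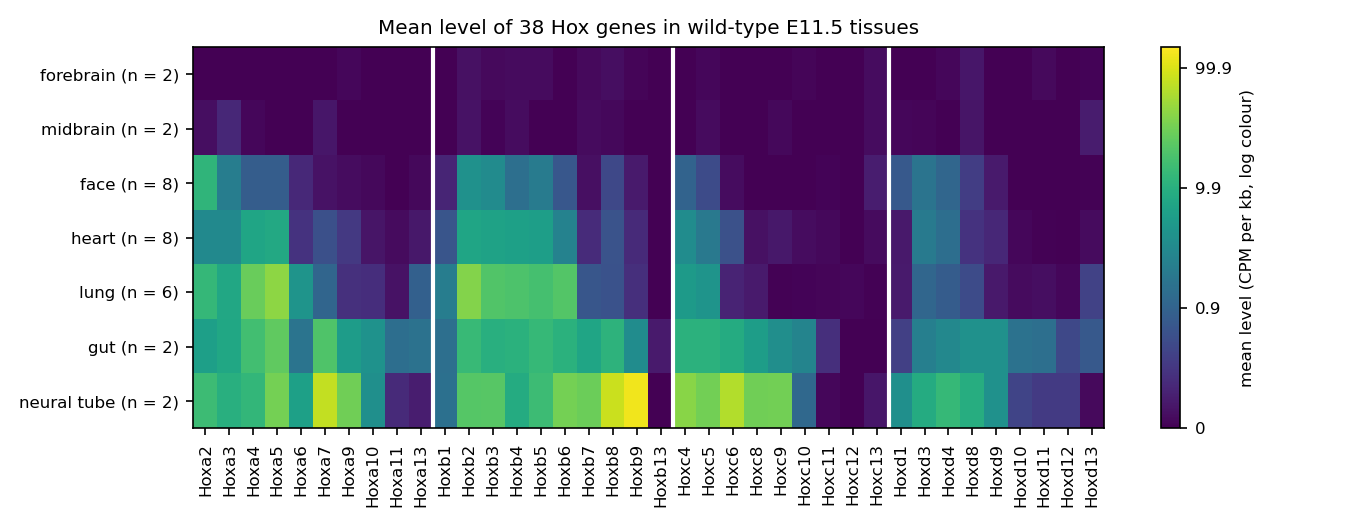
Mean level of each of the 38 Hox genes (columns, by cluster and paralog order) in wild-type libraries of 7 tissues (rows, forebrain to neural tube), as TMM-scaled CPM per kilobase on a log colour scale. The forebrain and midbrain rows are near 0, the face holds 8 genes at or above the floor of 1, and the gut (31) and neural tube (28) hold most of the series.

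The median summed level of the 38 members rose along the same order up to the neural tube. The mean did not rise from lungs (232.2) to guts (230.6). It was 0.289 and 0.372 in the wild-type forebrains and 0.339 and 0.777 in the wild-type midbrains. In faces it ran from 17.9 through a median of 28.7 to 57.8 (n = 8), in hearts from 9.15 through 39.5 to 163 (n = 8) and in lungs from 187 through 199 to 418 (n = 6). The 2 wild-type guts had summed levels of 220 and 241 and the 2 neural tubes 738 and 798. Brain regions did not overlap with any other tissue, whereas the ranges of face and heart overlapped, and those of lung and gut. The mean paralog number, weighted by level, was 2.95 ± 0.321 in faces (SD, n = 8), 3.85 ± 0.341 in hearts (n = 8), 3.99 ± 0.114 in lungs (n = 6), 5.58 ± 0.218 in guts (n = 2) and 6.56 ± 0.173 in neural tubes (n = 2). Paralog groups 1 to 4 made up 86.6% of the summed face level and 20.7% of the summed neural tube level. Groups 9 to 13 made up 0.919% in the face, 3.66% in the heart (median 1.37%, and a mean of 1.62% without the wild-type B2 heart A55, whose share was 17.98% of a summed level of 9.15), 0.841% in the lung, 12.8% in the gut and 25.8% in the neural tube.

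In the neural tube the series climbed to paralog group 9 and then broke off. The summed level of group 9 was 193 ± 26.3 (SD, n = 2), that of group 8 was 124 ± 5.31, and that of group 10 was 5.14 ± 2.86. Hoxb9, a gene of the thoracic domain, had the highest level of any member, 123.5 and 129.8 in the wild-type libraries A34 and A36. Hoxa7 had levels of 68.2 and 83.3, Hoxc6 58.7 and 69.7 and Hoxd4 13.4 and 13.1 in the same libraries. Each was the leading gene of its cluster there. The levels of all of these genes did not overlap with those of the next tissue, the gut, where Hoxb9 reached 3.71 at most. Of the 38 members, 19 had their highest wild-type mean in the neural tube, and 24 did in the deposited TPM.

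The gut series was flatter and longer. Its highest paralog sum was that of group 5, 49.5 ± 4.22 (SD, n = 2), with 8.13 ± 9.26 in group 10. Hoxa5, which normal lung development requires, had levels of 23.1 and 27.3 in the wild-type guts A42 and A44. Hoxb2 had 15.5 and 11.95, Hoxc4 11.1 and 10.5 and Hoxd9 5.63 and 2.19. The posterior end separated these 2 libraries from each other. Hoxa13, which marks the hindgut end of the tube, had a level of 2.88 in A42 and 0.04 in A44, Hoxa11 2.54 and 0.06, and Hoxc10 5.00 and 0.18. The homozygous guts held Hoxa13 at 0.69 and 1.11, between these libraries, and Hoxa11 at 1.22 and 3.36. On the level scale the gut had the highest wild-type mean of all tissues for 11 members, all of paralog groups 9 to 13. Several of these means therefore rest on A42. Hoxd9 was nearly level with the neural tube (3.91 against 3.906), and Hoxb13, Hoxc11, Hoxd12 and Hoxd13 were below the floor. In the deposited TPM the gut led for 12 members, which included Hoxa4 and Hoxb4 but not Hoxd9.

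The lung series ended sharply after group 6. Group 5 summed to a level of 65.1 ± 21.04 (SD, n = 6), group 6 to 25.7 ± 20.8 and group 7 to 1.58 ± 1.30. Hoxa5 ran from 32.8 through 40.3 to 68.2 in wild-type lungs, and Hoxb2 from 21.8 through 30.9 to 86.6. Hoxc4 reached a mean level of 5.27 ± 1.60 and Hoxd3 1.02 ± 0.287 (n = 6). The highest Hoxa5 and Hoxb2 levels were both of E5420-07, the library set apart above. The place of the lung among the tissues depended on the scale. Hoxa4 had a mean level of 27.9 in lungs, 16.3 in guts and 12.5 in neural tubes, but means of 14.9, 26.9 and 22.2 in the deposited TPM, where the lung was the lowest of the 3. Summed over the 38 members, the mean was 232 in lungs and 231 in guts as levels, and 119 and 372 as TPM. Hoxa13 lay outside the run of groups 1 to 6, at wild-type lung levels of 0.26 to 1.38, above the neural tube's highest level of 0.16, while groups 7 to 12 had mean sums of 0.0263 to 1.58.

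The face carried the shortest series of the tissues that expressed Hox genes. Group 2 led with a summed level of 15.7 ± 2.80 (SD, n = 8), and group 7 summed to 0.081 ± 0.110. Hoxa2, the Hox gene of the second branchial arch, ran from 8.96 through 11.4 to 15.1 in the 8 wild-type faces. Its wild-type ranges in neural tube (mean 14.8), lung (13.04, though below the gut in the deposited TPM, 7.24 against 9.99) and face (11.7) overlapped, and that of the face lay wholly above that of the gut (mean 6.13). Hoxb2 had a mean face level of 3.99 ± 1.09, Hoxd3 1.59 ± 0.550 and Hoxc4 0.913 ± 0.725. The posterior limit moved between libraries. The wild-type B6 face A28 held Hoxb8 at 2.66 and Hoxa6 at 0.98, whereas the other wild-type faces held Hoxb8 at 0.30 or less and Hoxa6 at 0.07 or less.

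**Figure D2:**
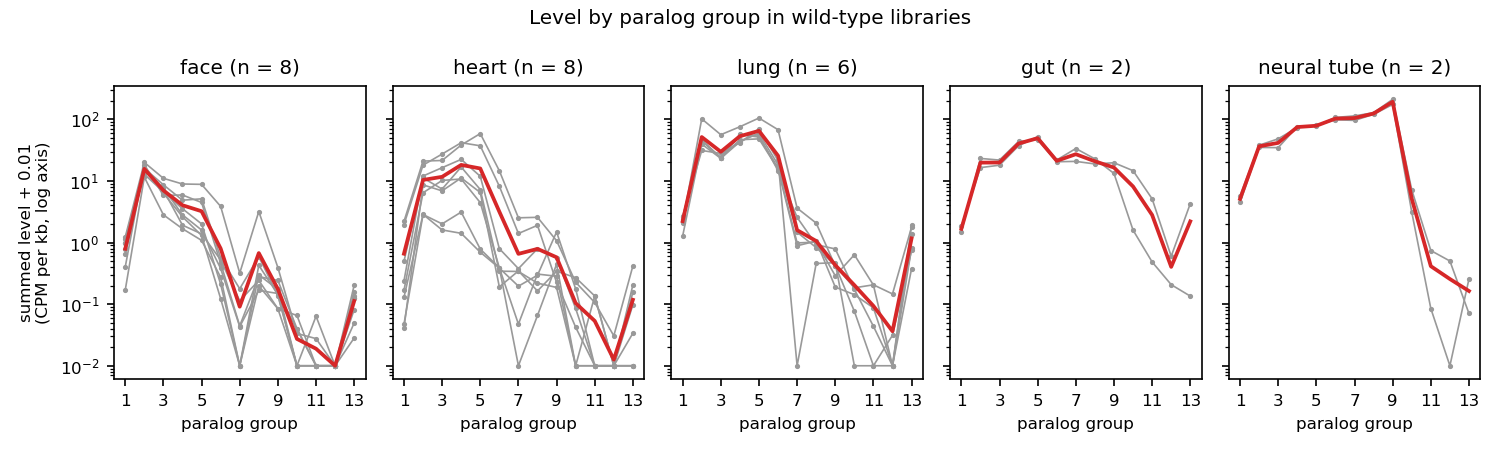
Summed level of each paralog group (x axis, 1 to 13) in wild-type libraries of 5 tissues (y axis, TMM-scaled CPM per kilobase plus 0.01, log axis), with libraries as grey lines and their mean in red. The neural tube profile peaks at group 9 (193) and falls to 5.14 at group 10, the gut profile peaks at group 5 (49.5) and the face profile at group 2 (15.7).

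The brain regions tested the other end of the axis. In the wild-type forebrains the highest member level was that of Hoxb2, 0.0788 in 1 library and 0 in the other, and in the wild-type midbrains Hoxa3 had a mean of 0.123 ± 0.0332 (SD, n = 2). Forebrain marker sums of 847 to 851 CPM in the wild-type forebrains were the highest of any tissue. The homozygous B4 midbrain A39 had a summed Hox level of 3.40, against 0.339 to 0.777 in the other 3 midbrains, and Hoxb2 stood at 0.98 in it. The same library had a forebrain marker sum of 381 CPM and a midbrain marker sum of 186 CPM. Both lay outside the ranges of the other midbrains (121 to 141 CPM and 280 CPM or more). The homozygous and wild-type forebrains themselves had summed Hox levels of 0.289 to 0.372. The hindbrain marker sum was 21.11 CPM in A39, and 25, 30.8 and 33.26 CPM in A37, A38 and A40. The part of these marker differences in the Hox level was not tested.

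Tissues were compared within lines that supply both, with genotype in the model (edgeR quasi-likelihood test, adjusted over all genes). Between most tissues a large share of all genes passed, so the counts of members are given beside that share. For DESeq2, run as an alternative here and for genotype and line, the members counted are all those with a p-value. Its share of all genes covers only those that passed its own filter on low counts. The DESeq2 counts and shares are therefore not fully alike. Members enter a fit only above a minimum count, which a gene can meet through the tissue where it is high, so the counts and medians over tested members are no support for a direction, and counts without that filter are given too.

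In line B2, 17 of 19 tested members were higher in lung than in heart, where 41.7% of all genes were higher, and 0 were lower, where 38.8% were lower (80.4% in either direction). Without the filter 23 of 37 members passed, where 62.6% of all genes did, and DESeq2 called 20 of 35, where it called 69.4% of all genes. Library properties also differed between these tissues. The mitochondrial share was 11.3% to 14.05% in 10 of the 12 lungs (1.54% and 0.362% in the other 2) and 1.86% to 3.14% in the 8 hearts, and 10 genes took 22.8% or more of the counts in each lung and 10.5% or less in each heart. Lungs and hearts also carry different series of library codes, so tissue and preparation cannot be told apart. The median difference was 2.54 on the log2 scale, and 0.0645 over all genes. Hoxa6 was at 0 counts in all 8 B2 hearts and at least 96.9-fold higher in lung (floor of 3 counts over the hearts), and Hoxb6 rose by a log2 difference of 6.08 ± 0.562 (SE, adjusted p = 2.22e-09). Hoxa5 was 4.35 ± 0.445 higher (adjusted p = 1.08e-08), and Hoxb1, the gene of the fourth hindbrain segment, 4.45 ± 0.456 (adjusted p = 1.15e-08). Hoxa13 had 162 counts in lungs and 2 in hearts, a ratio of 52.1 with a 95% counting interval of 14.2 to 434. Hoxd3 and Hoxd4 did not pass, with log2 differences of 0.84 (95% interval −0.13 to 1.82) and 0.49 (−0.62 to 1.61).

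In lines B3 and B5, 10 of 18 tested members differed between face and heart, where 71.8% of all genes passed, and 20 of 36 members passed without the filter (49.6% of all genes) and 14 of 36 by DESeq2 (63.5% of all genes). In the face 37.1% of all genes were higher and 34.6% lower. Higher in the face were Hoxa2, by a log2 difference of 1.55 ± 0.574 (SE, adjusted p = 0.0245), and Hoxd1, by 2.48 ± 0.562 (adjusted p = 0.00105). The call of Hoxa2 was lost without A10, A11, A12 or A17 (adjusted p = 0.0502 to 0.0566). Higher in the heart were 8 members, which included Hoxa5 (log2 difference −4.47 ± 0.723, adjusted p = 6.10e-05), Hoxa4 (−4.08 ± 0.542, adjusted p = 1.02e-05) and Hoxc4 (−2.67 ± 0.477, adjusted p = 0.000151). Hoxa7 and Hoxb8 were lower in the face by 3.13 each, and Hoxb4, Hoxc5 and Hoxd4 also fell. Without the 3 hearts A16, A21 and A24, an alternative chosen after seeing the data, 7 of 15 tested members passed, as did 73.1% of all genes.

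In line B4, all 32 tested members were higher in gut than in midbrain, where 66.6% of all genes passed (35.9% higher and 30.7% lower), and 35 of 37 passed without the filter (48.7% of all genes) and 35 by DESeq2 (57.4%). Of the 32, 14 had 0 counts in the 4 midbrains. Hoxb5 was at least 627-fold higher in gut, Hoxb6 at least 376-fold, Hoxc8 at least 285-fold and Hoxa10 at least 227-fold. Hoxa5 had 3385 counts in guts and 1 in midbrains, a ratio of 3397 (95% counting interval 609 to 1.34e+05). The median log2 difference of 8.96 became 7.40 with genes of 0 counts at their bound.

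In line B8, all 29 tested members were higher in neural tube than in forebrain, where 36.2% of all genes passed (19.5% higher and 16.7% lower), and 32 of 36 passed without the filter (26.5% of all genes) and 31 by DESeq2 (31.9%). Hoxa7 was at least 3382-fold higher, Hoxc6 at least 2708-fold, Hoxc8 at least 1845-fold, Hoxc9 at least 1679-fold and Hoxa5 at least 1472-fold, each with 0 counts in the 4 forebrains. The median log2 difference was 10.8, and 9.87 with such genes at their bound.

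The counts of called partner genes stand against the shares of all genes called in these comparisons, 80.4% in lung over heart, 71.8% in face over heart, 66.6% in gut over midbrain and 36.2% in neural tube over forebrain. Of 9 TALE cofactors, 5 were higher and 2 lower in lung than in heart, 4 higher and 2 lower in face than in heart, 2 higher and 5 lower in gut than in midbrain, and 7 higher and 1 lower in neural tube than in forebrain. Meis1 was 1.74 ± 0.0804 (log2, SE) higher in lung than in heart (adjusted p = 1.89e-14), 2.00 ± 0.0766 higher in gut than in midbrain (adjusted p = 2.08e-08) and 2.65 ± 0.107 higher in neural tube than in forebrain (adjusted p = 8.59e-08). In face against heart Meis1 was lower, by a log2 difference of −0.37 ± 0.117 (adjusted p = 0.00971). Pknox1, which binds DNA with Pbx proteins, was 1.81 ± 0.0831 higher in lung than in heart (adjusted p = 1.68e-14).

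Among 16 regulators of Hox transcription, 6 of 10 tested were higher and 1 lower in lung than in heart, 9 of 13 and 1 in face against heart, 6 of 12 and 5 in gut against midbrain, and 9 of 12 and 2 in neural tube against forebrain. Aldh1a2, which makes retinoic acid, was higher by a log2 difference of 7.75 ± 0.393 in gut over midbrain (adjusted p = 1.26e-07), 7.10 ± 0.405 in neural tube over forebrain (adjusted p = 8.94e-07) and 1.15 ± 0.127 in lung over heart (adjusted p = 3.80e-08). In face against heart it was −1.03 ± 0.212 (adjusted p = 0.000516). Rarb, a retinoic acid receptor, was 2.34 ± 0.140 higher in neural tube than in forebrain (adjusted p = 1.18e-06). Kmt2a, the methyltransferase that keeps Hox genes active, was 3.11 ± 0.134 higher in lung than in heart (adjusted p = 6.51e-15). The hearts of this comparison are of line B2, whose wild-type hearts were also lower in Kmt2a than those of B3 and B5. Gdf11, a signal of the trunk-to-tail step, was 0.73 ± 0.0920 higher in face than in heart (adjusted p = 6.17e-06) and lower in gut than in midbrain (log2 difference −1.32 ± 0.0647, adjusted p = 1.03e-07). Of the 6 neighbouring and sister homeobox genes, 2 of 2 tested were higher in lung over heart and 2 of 3 in face over heart, with 0 lower in both. In gut over midbrain 2 of 5 tested were higher and 3 lower, and in neural tube over forebrain 3 of 5 higher and 1 lower.

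Hox levels ran over a wide range among the wild-type hearts. Hoxa5 ran from 0.322 through 4.01 to 29.3 (n = 8), Hoxb2 from 2.23 through 6.99 to 14.9, Hoxc4 from 0.299 through 2.23 to 8.23 and Hoxd3 from 0.0516 through 1.82 to 4.41. The wild-type B5 heart A24 and the wild-type B3 heart A16 had the highest summed levels of all 20 hearts, 163 and 138, and the other 18 hearts had 5.44 to 67.9. Genes of groups 5 and 6 set these libraries apart. Hoxb5 stood at 23.1 in A24 and 15.5 in A16, and at 3.12 or less in each of the other 18 hearts. Hoxb6 stood at 11.4 in A24 and 7.49 in A16, and at 0.90 or less in each of the other 18 hearts. Their lung and foregut marker sums were also the highest of all hearts, 190 CPM in A24 and 170 CPM in A16, with 117 in A21, 61.1 in A23 and 6.52 to 36.4 CPM in the rest. All 7 lung and foregut markers had counts in hearts, and of 7 gut markers 6 had counts while Cdx2 was at 0. The part of these marker differences in the Hox levels was not tested. Without A16 and A24, an alternative chosen after seeing the data, 11 members were at the floor in wild-type hearts in place of 13.

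**Figure D3:**
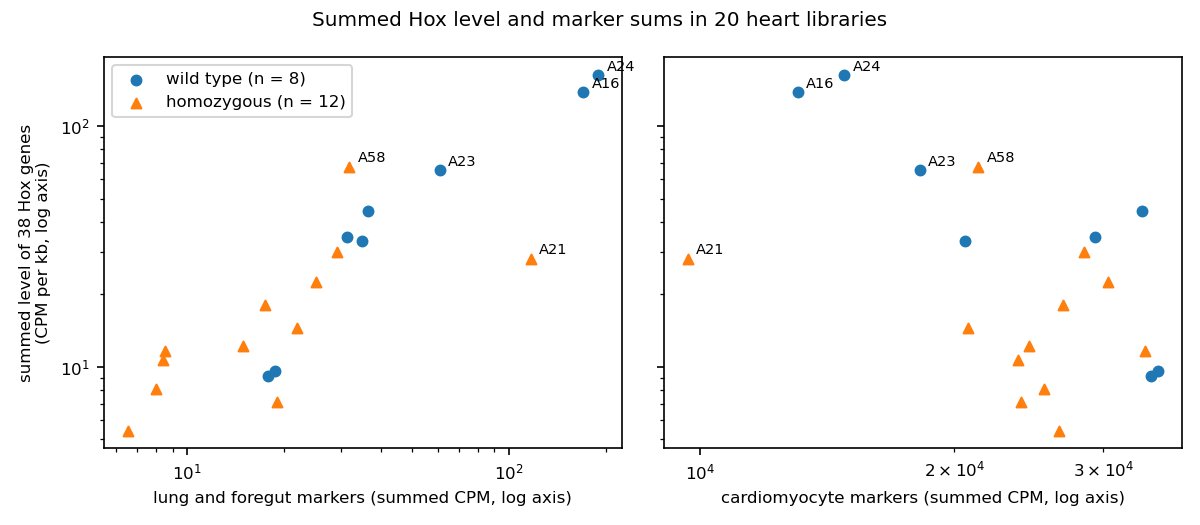
Summed level of the 38 Hox genes (y axis, TMM-scaled CPM per kilobase) in the 20 hearts against the summed lung and foregut markers (left panel, CPM) and the summed cardiomyocyte markers (right panel, CPM), all on log axes, with 8 wild-type hearts as circles and 12 homozygous hearts as triangles. The wild-type hearts A24 (163) and A16 (138) are the highest and also have the highest lung and foregut sums (190 and 170).

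The wild-type hearts also differed by line. In the 4 wild-type hearts of B2 against the 4 of B3 and B5, 8 of 12 tested members were lower and 0 higher. The share of all genes that passed in edgeR was 62.5% (30.6% lower and 31.9% higher), so most genes differed between these sets. Library titles of the B3 and B5 hearts carry a code that those of the B2 hearts lack. Line, litter, dissection day and library series therefore cannot be told apart. Hoxb5 was lower in B2 hearts by a log2 difference of −3.31 ± 0.922 (SE, adjusted p = 0.00855), Hoxa5 by −2.63 ± 0.831 (adjusted p = 0.0168) and Hoxb3 by −2.15 ± 0.466 (adjusted p = 0.00192). The number called was 5 of 12 without A24 (60.2% of all genes) and 13 of 13 without A60 (59% of all genes), and DESeq2 called 12 of 35, where it called 49.8% of all genes. Kmt2a was lower in the same comparison, −2.05 ± 0.132 (adjusted p = 4.90e-06). In wild-type faces of B6 and B7 against B3 and B5, edgeR called 0 of 15 tested members (0% of all genes), 0 had an unadjusted p under 0.05 and DESeq2 called 0.

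The deletions themselves gave no Hox call in edgeR. In 14 comparisons of homozygous with wild-type libraries, 12 of which had members above the minimum count, 0 members passed an adjusted p of 0.05. The comparisons below are ordered from head to tail. They give the libraries' values, since with 2 libraries a group the homozygous values often stood to 1 side of the wild-type ones. A member can meet the minimum count through the genotype where it is high. Counts and medians over tested members are therefore no support for a direction here either, and members measured in the same libraries are not replicates of each other.

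**Figure D4:**
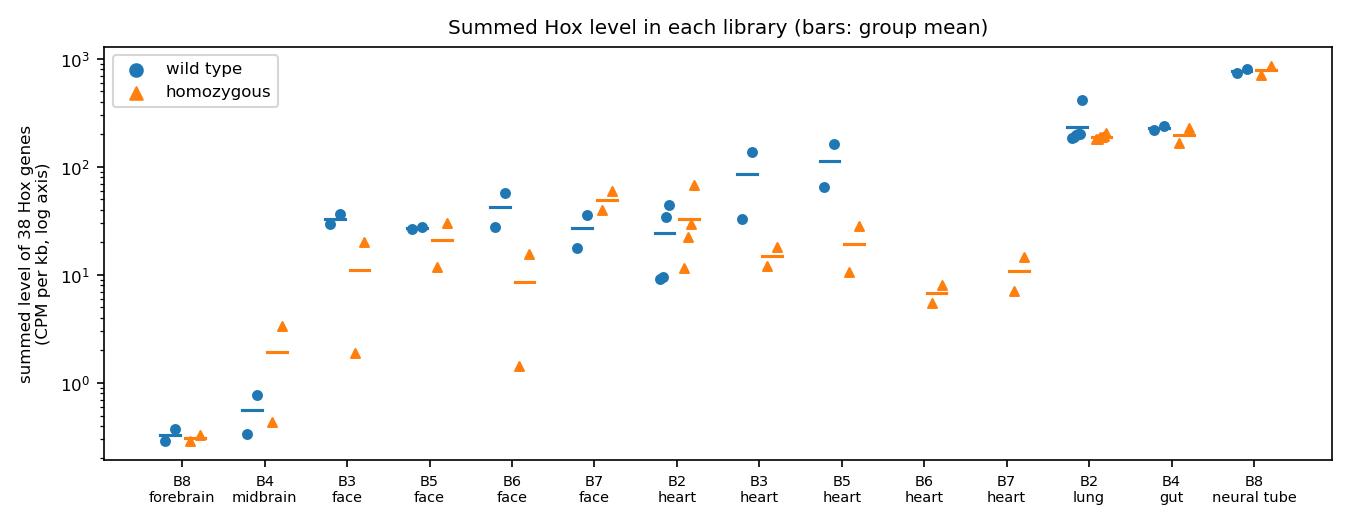
Summed level of the 38 Hox genes (y axis, TMM-scaled CPM per kilobase, log axis) in each library by line and tissue (x axis), with wild-type libraries as circles, homozygous libraries as triangles and bars at group means. The homozygous B6 face A7 (1.43) and B3 face A9 (1.91) lie below all other faces, and hearts spread from 5.44 to 163.

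In B8 forebrains no member reached the minimum count, and 0% of all genes were called. In B4 midbrains none did either, where 0.00677% of all genes were called. Without A37 the B4 midbrain fit included 5 members, of which 1 was called, as were 3.62% of all genes. That fit leaves A39, the midbrain with the summed Hox level of 3.40 and the high forebrain marker sum, as the only homozygous library.

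In B3 faces, edgeR called 0 of 12 tested members, where 0.0131% of all genes were called, 6 members had an unadjusted p under 0.05 and DESeq2 called 0. Without the filter 13 of 27 were called (1.96% of all genes), and 2 members were higher and 25 lower. Of the 12, 10 were lower in both homozygous faces than in both wild-type faces, as were 20.3% of all genes. Hoxc4 had levels of 0.10 and 0.02 in homozygous and of 1.32 and 0.53 in wild-type faces (log2 difference −3.99 ± 0.776, SE, adjusted p = 0.503). Hoxb2 had levels of 2.24 and 0.23 against 4.68 and 5.67, a log2 difference of −2.118 ± 0.685 (adjusted p = 0.503). The homozygous faces were unlike each other, since Hoxa2 stood at 10.7 in A11 and at 0.39 in A9. Without A11, 3 of 16 tested members were called (0.128% of all genes).

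In B5 faces, edgeR called 0 of 13 tested members (0% of all genes), 5 had an unadjusted p under 0.05 and DESeq2 called 0. In both homozygous faces 6 members lay below both wild-type faces, as did 21.4% of all genes. For the 1 member that lay above, no share of all genes is given, so nothing is read from it. Hoxc4 had levels of 0.17 and 0.13 against 0.39 and 0.65 (log2 difference −1.78 ± 0.528, adjusted p = 0.999). Hoxa4 had levels of 0.14 and 0.03 against 0.54 and 0.31 (log2 difference −2.24 ± 0.791, adjusted p = 0.999). These levels were low, with 36 counts of Hoxa4 in the 4 libraries together.

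In B6 faces, edgeR called 0 of 13 tested members (0.0723% of all genes), with 10 at an unadjusted p under 0.05, 6 of 28 called by DESeq2 (1.06% of all genes) and 14 of 28 without the filter (2.93%). In 12 of the 13, both homozygous faces lay below both wild-type faces, as did 17.5% of all genes. Some, such as Hoxb5 (0 counts in homozygous and 288 in wild-type faces), met the minimum count through the wild-type faces alone. Hoxd4 had 0 counts in both homozygous faces and levels of 0.99 and 2.10 in the wild-type faces, at least 33.7-fold lower (adjusted p = 0.106). Hoxb4 had levels of 0.24 and 0.07 against 1.06 and 2.66 (log2 difference −3.68 ± 0.625, adjusted p = 0.144). Hoxa5 had 1 count in homozygous faces against 129 counts, a ratio of 122 (95% counting interval 21.5 to 4853, adjusted p = 0.224). Hoxa2 stood at 9.19 in the homozygous A5 and 0.03 in A7, with 11.95 and 15.13 in the wild-type faces. The calls depended on the libraries, with 10 of 19 tested members called without A5 (2.54% of all genes), 7 of 17 without A7 (0.348%), 13 of 19 without A27 (1.91%) and 3 of 12 without A28 (0.595%).

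In B7 faces more members stood higher than lower in the homozygous libraries. Of 16 tested members edgeR called 0 (0.0329% of all genes), 7 had an unadjusted p under 0.05, DESeq2 called 1 (0.529% of all genes) and the fit without the filter 10 of 29 (2.07%). In 8 members both homozygous faces lay above both wild-type faces, as did 21.7% of all genes. For the 1 member that lay below, no share of all genes is given, so nothing is read from it. Hoxb3 had levels of 5.30 and 8.85 in homozygous and 2.39 and 1.12 in wild-type faces (log2 difference 2.01 ± 0.358, SE, adjusted p = 0.227). Hoxb1 had 1.82 and 0.77 against 0.12 and 0.00 (4.45 ± 0.902, adjusted p = 0.311), and Hoxb2 had 8.34 and 6.66 against 4.41 and 2.57 (1.10 ± 0.268, adjusted p = 0.417). Without A1, 12 of 18 tested members were called (1.66% of all genes), and without A3, 5 of 16 (4.07%).

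Faces A9 and A7 were thus nearly without Hox transcripts, with summed levels of 1.91 and 1.43, while Hoxa2 ran from 5.76 to 15.1 in the other 14 faces. Their cranial mesenchyme marker sums, 1221 and 1385 CPM, lay within or at the top of the range over all faces, 947 to 1385 CPM. Hindbrain marker sums were 17.5 CPM in A9 and 25.3 CPM in A7, with 25.4 to 48.2 CPM in the other faces, and the part of this difference in the Hox levels was not tested.

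In B3 hearts, edgeR called 0 of 13 tested members (0% of all genes), with 11 at an unadjusted p under 0.05 and 5 of 33 called by DESeq2 (0.567% of all genes). In 11 members both homozygous hearts lay below both wild-type hearts, as did 21.5% of all genes. Hoxd4 had levels of 0.24 and 0.31 in homozygous and of 1.69 and 2.13 in wild-type hearts (log2 difference −2.77 ± 0.450, SE, adjusted p = 0.524). Hoxd3 had 0.26 and 0.79 against 2.88 and 4.41 (−2.79 ± 0.558), and Hoxb3 had 2.45 and 1.97 against 4.86 and 16.4 (−2.28 ± 0.579, both adjusted p = 0.524). The wild-type side includes A16, and without A14, which leaves A16 as the only wild-type heart, 8 of 19 tested members were called (1.56% of all genes).

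In B5 hearts, edgeR called 0 of 16 tested members (0% of all genes), 10 had an unadjusted p under 0.05 and DESeq2 called 4 of 36 (0.0372% of all genes). In 10 members both homozygous hearts lay below both wild-type hearts, as did 9.84% of all genes. Hoxc4 had levels of 0.71 and 0.27 in homozygous and of 4.97 and 7.63 in wild-type hearts (log2 difference −3.66 ± 0.617, SE, adjusted p = 1.00). Hoxa4 had 1.13 and 0.36 against 8.09 and 17.7 (−4.10 ± 0.755) and Hoxb4 2.15 and 1.44 against 6.33 and 12.3 (−2.39 ± 0.461, both adjusted p = 1.00). Both libraries with unusual marker sums are in this set, A21 among the homozygous and A24 among the wild-type hearts. Without A22, 2 of 22 tested members were called (5.74% of all genes).

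In B2 hearts, edgeR called 0 of 12 tested members (0% of all genes), 0 had an unadjusted p under 0.05 and DESeq2 called 0. No member separated the groups, where 0.906% of all genes lay wholly above and 2.43% wholly below in homozygous hearts. Hoxc5 had levels of 0.46, 0.43, 0.69 and 8.33 in homozygous and of 0.18, 0.60, 0.04 and 1.47 in wild-type hearts (log2 difference 2.119 ± 1.05, SE, adjusted p = 0.867). The positive values of Hoxc5, Hoxc4 (1.12) and Hoxb3 (0.77) rested on A58, without which they were −0.12, −0.53 and −0.17. A58 also had a liver marker sum of 1234 CPM and a cranial mesenchyme sum of 367 CPM, and the part of these in its Hox levels was not tested.

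The homozygous hearts of B6 and B7 were compared with the same 8 wild-type hearts, taken from lines B2, B3 and B5. Library titles of B3, B5, B6 and B7 carry a code of their own line, and those of B2 carry none. Line, library series and genotype therefore cannot be told apart, and the results of B6 and B7 share their controls. In B6, edgeR called 0 of 18 tested members (0% of all genes), 11 had an unadjusted p under 0.05 and DESeq2 called 9 of 36 (3.68% of all genes). In 7 members both B6 hearts lay below all 8 wild-type hearts, as did 8.63% of all genes. Hoxa4 stood at 0.18 and 0.12 in the B6 hearts and ran from 0.31 to 17.7 in the wild-type hearts (log2 difference −5.58 ± 1.64, adjusted p = 0.195). Hoxc5 had 1 count in the B6 hearts, a ratio of 204 (95% counting interval 36.5 to 8075, adjusted p = 0.217). In B7, edgeR called 0 of 18 (0% of all genes), 6 had an unadjusted p under 0.05, DESeq2 called 0 and no member separated the groups (4.74% of all genes lay below). Hoxd3 stood at 0.14 and 0.08 in the B7 hearts (log2 difference −4.08 ± 1.53, adjusted p = 0.506). The choice of controls decided these counts. Against B2, B3 and B5 controls in turn, 7 of 12, 0 of 12 and 11 of 13 tested members were called in B6, where 58%, 0% and 14.7% of all genes were called. In B7, 0 of 12, 0 of 12 and 11 of 13 were called, where the shares of all genes were 57.5%, 0.00677% and 5.44%.

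In B2 lungs, edgeR called 0 of 19 tested members (0% of all genes), 4 had an unadjusted p under 0.05 and DESeq2 called 0. Hoxb6 was the 1 member that separated the groups, as did 0.139% of all genes in this direction. It ran from 5.50 to 11.6 in the 6 homozygous lungs and from 12.8 to 55.1 in the 6 wild-type lungs (log2 difference −1.16 ± 0.339, SE, adjusted p = 0.890), and leaving aside E5420-07 and E5420-09 the wild-type lungs ran from 12.8 to 15.3. Liver marker sums also differed between these groups, from 31.4 through a median of 232 to 306 CPM in homozygous and from 3.17 through 31.3 to 60.1 CPM in wild-type lungs, and the part of this in the Hox levels was not tested. Hoxd4 had a log2 difference of 0.70 ± 0.241 and Hoxb5 of −0.65 ± 0.246, with an adjusted p of 0.890 each.

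In B4 guts, edgeR called 0 of 34 tested members (0% of all genes), 4 had an unadjusted p under 0.05 and DESeq2 called 0, while the fit without the filter called 4 of 37 (2.29% of all genes). In 9 members both homozygous guts lay below both wild-type guts, as did 18.7% of all genes. Hoxa3 had levels of 5.38 and 5.74 in homozygous and of 8.18 and 7.41 in wild-type guts (log2 difference −0.49 ± 0.157, SE, adjusted p = 0.537). Hoxd3 had 0.97 and 0.85 against 3.26 and 1.20 (−1.28 ± 0.478, adjusted p = 0.644). Without A42, 4 of 35 tested members were called (1.02% of all genes), and without A44, 3 of 35 (3.38%), the 2 wild-type guts that differed at the posterior end.

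In B8 neural tubes, edgeR called 0 of 31 tested members (0.0132% of all genes), 7 had an unadjusted p under 0.05, DESeq2 called 1 (0.157% of all genes) and the fit without the filter 5 of 36 (3.13%). In 6 members both homozygous libraries lay above both wild-type ones, as did 21.5% of all genes. For the 2 members that lay below, no share of all genes is given, so nothing is read from them. Hoxd9 had levels of 8.31 and 12.6 in homozygous and of 2.90 and 4.91 in wild-type neural tubes (log2 difference 1.41 ± 0.279, SE, adjusted p = 0.400). Hoxc10 had 2.22 and 19.4 against 0.26 and 1.92 (3.27 ± 0.964, adjusted p = 0.419), and Hoxc9 had 42.8 and 49.8 against 23.7 and 38.9 (0.56 ± 0.203, adjusted p = 0.464). The high Hoxc10 value was that of A35, in which Hoxa10 also stood at 18.4, with 2.29 to 4.66 in the other 3 neural tubes. The same library had the lowest summed level of groups 1 to 4, 108.1, with 150.6 to 171.3 in the other 3. Its top 10 genes took 8.5% of its counts, against 4.455% to 4.729% in the other 3. The part of these library differences in the Hox levels was not tested. Without A33, 5 of 32 tested members were called (0.301% of all genes), without A35, 2 of 31 (6.48%), and without A36, 1 of 32 (0.186%).

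**Figure D5:**
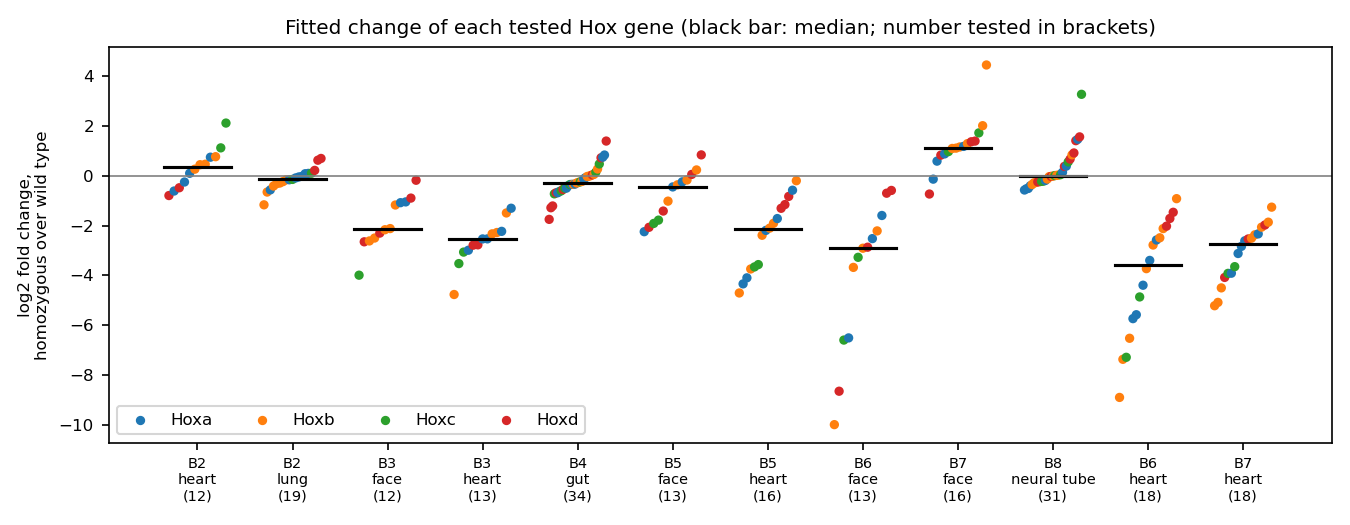
Fitted log2 fold change, homozygous over wild type (y axis), of each tested Hox gene in the 12 genotype comparisons with tested members (x axis), coloured by cluster, with the median as a black bar. Medians lie at −2.91 in B6 faces and at 1.14 in B7 faces, and no point passed an adjusted p of 0.05. Members can meet the minimum count through 1 genotype, so the medians are no support for a direction. Fitted values of genes without counts in a group depend on the prior count.

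Whether a deletion acted differently in the 2 tissues of a line was tested as an interaction in edgeR. In B2 (lung minus heart) 0 of 19 tested members were called (0% of all genes) with 3 at an unadjusted p under 0.05, and in B3 (face minus heart) 0 of 17 (0.0311% of all genes) with 0. In B4 (gut minus midbrain) 0 of 34 were called (0% of all genes) with 6, in B5 (face minus heart) 0 of 19 (0%) with 4, and in B8 (neural tube minus forebrain) 0 of 32 (0%) with 0. DESeq2 called 0 members in all 5 interactions. Without A37 the B4 interaction held A39 as its only homozygous midbrain, so a call in that fit rests on 1 library. Of the TALE cofactors, regulators and neighbouring homeobox genes, 0 were called in any of the 14 genotype comparisons.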

How the data were processed

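Total RNA of E11.5 tissues was sequenced on a NovaSeq, and the authors mapped reads to mm10 with STAR and quantified GENCODE genes with RSEM. Per the labels, 1 table was deposited per library, with expected counts and TPM per gene made by the authors. The kit's strand setting is not given in the sources used here. Expected counts of the 43346 Ensembl genes were rounded and fitted with edgeR 4.0.16 (filterByExpr, TMM, quasi-likelihood test, R 4.3.3), with Benjamini-Hochberg adjustment over all genes tested and a threshold of 0.05. DESeq2 1.42.0 was run as an alternative. Deposited TPM served only as an alternative level scale. Levels are TMM-scaled CPM over all 64 libraries divided by RSEM effective length in kilobases. Counting intervals (95%) cover counting error only.

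Replicates are separate libraries, and for tissues other than lung no label ties a library to an embryo, so p-values measure the spread between these libraries. No 2 libraries held identical values, and in every pair of replicates counts differed by more than sampling noise. The fits were tested on simulated counts. Hi-C samples were not used. The members, gene lists, motifs and tests were chosen with earlier results of these data known. Outside the brain regions, levels are given for the leading member of each cluster in a tissue, by library or as a range or mean. In genotype comparisons the members named were taken mainly from the 3 of smallest p. Library values are given for some of these. In full are given up to 5 called members with the largest change in each direction of a tissue or line comparison, and up to 4 called partner genes per list.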

Additional observations from a re-analysis of the deposited data

Results flagged for a closer look

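In groups of 4 to 10 libraries, 38 sets of values were examined for a highest or lowest library far from the others (Dixon's 95% critical value). In all, 6 were found, and these are values of A58 and E5420-07 only. The sets share libraries, and some genes were chosen by their p in the same libraries. The 1 in 20 that chance gives for independent sets is therefore no measure for this count. The homozygous B2 heart A58 stood apart for Hoxc4 (level 7.50, with 0.97, 0.19 and 1.21 in the other 3) and Hoxc5 (8.33). The wild-type B2 lung E5420-07 stood apart for the summed level (417.6), Hoxa5 (68.2), Hoxb2 (86.6) and Hoxb6 (55.1), and it is the lung with the mitochondrial share of 0.362% and the highest lung and foregut marker sum (894 CPM). The part of these properties in the levels was not tested.

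In faces, several genes moved to opposite sides in different lines, with every homozygous library below both wild-type libraries in one line and above them in the other. These differences between lines were not tested. Between B3 and B7 this held for the summed level (homozygous mean 11.004 in B3), Hoxb2 (log2 difference −2.118 in B3 and 1.10 in B7), Hoxb3 (−2.50 and 2.01) and Hoxc4 (−3.99 and 1.72). Between B5 and B7 it held for Hoxc4 (−1.78 and 1.72). Between B6 and B7 it held for the summed level (homozygous mean 8.53 in B6), Hoxb2 (−2.21 and 1.10), Hoxb3 (−2.91 and 2.01) and Hoxb4 (−3.68 and 1.16). The homozygous faces A9 of B3 and A7 of B6, with summed levels of 1.91 and 1.43, are part of these values.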

How the results depend on the processing

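With RLE in place of TMM factors the counts of called members in tissue comparisons were the same as with TMM, 17, 10, 32 and 29. DESeq2 called 5 members in B3 hearts, 4 in B5 hearts, 6 in B6 faces, 1 in B7 faces, 1 in B8 neural tubes and 9 in B6 hearts, in place of 0. Without the filter on low counts 13 were called in B3 faces, 4 in B4 guts, 14 in B6 faces, 10 in B7 faces and 5 in B8 neural tubes in place of 0, and 20 in place of 10 in face over heart. Against the wild-type hearts of B2 or B5 alone, B6 hearts gave 7 and 11 called members, and B7 hearts 11 against those of B5. The face count of 8 members at the floor became 13 at a floor of 0.5, 5 at a floor of 2 and 13 with the deposited TPM. The cause was not tested.

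Leaving out each library in turn, the number called ran from 0 to 3 in B3 faces, 0 to 8 in B3 hearts, 0 to 4 in B4 guts, 0 to 1 in B4 midbrains, 0 to 2 in B5 hearts, 3 to 13 in B6 faces, 0 to 12 in B7 faces, 0 to 5 in B8 neural tubes, 0 to 1 in the B4 interaction and 5 to 13 in wild-type hearts by line. With 1 library left in a group, that library is assumed to vary like the other groups. In B2 hearts the log2 difference ran from −0.12 to 3.20 for Hoxc5, −0.53 to 1.87 for Hoxc4 and −0.17 to 1.38 for Hoxb3, with the negative value each time without A58. In the other genotype comparisons with tested members, B2 hearts, B2 lungs, B5 faces and B6 and B7 hearts, the count stayed at 0. The tissue comparisons kept 16 to 19, 9 to 13, 32 to 34 and 29 to 32 called members, and the gut's members at the floor ran from 26 to 32. For single named members, leaving out 1 library kept direction and side of the threshold in 605 fits, gained a call in 26, lost one in 9 and reversed the sign in 3. Among lungs of B2, libraries of both genotypes share the codes E5403, E5406 and E5420, and with this code as a term 0 of 23 tested members were called, 3 had an unadjusted p under 0.05 and the log2 difference of Hoxb6 was −0.88 (adjusted p = 1.00, edgeR). In the other comparisons no label pairs the libraries of a genotype with those of the other. Depth limits members of few counts, and most groups hold 2 libraries.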
